A study of Mus musculus with 23 samples.

Results

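Activity-induced genes are the transcripts that neurons make within minutes to hours of firing. A list of 43 such genes was followed here across mouse brain RNA-seq libraries: immediate early transcription factors, feedback inhibitors of the signalling that induces them, and effectors that act at synapses. A gene was kept where its Ensembl identifier mapped to a listed symbol and its mean over all libraries was at least 10. All 43 passed, of 17256 genes that reached it and 18848 genes in the deposited table.

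The libraries were prepared from polyadenylated RNA of brain, with no region named, at postnatal day 17 from male mice of the C57BL/6J strain. The animals were heterozygous (HT) for the Grin2b C456Y mutation or wild type (WT), and were given DCS or vehicle. GluN2B, the product of Grin2b, is a subunit of NMDA receptors, the calcium-permeable glutamate receptors. The labels write DCS without spelling it out and give no dose or time; the letters usually stand for D-cycloserine, which acts as a partial agonist where glycine binds the NMDA receptor. There were 6 HT DCS, 6 HT vehicle, 5 WT DCS and 6 WT vehicle libraries. Whether each library was made from a separate mouse is not stated, so the p-values measure the spread between libraries, which may in part be technical.

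Calcium entering through NMDA receptors and voltage-gated channels activates kinases that phosphorylate CREB and the partners of SRF, factors already bound at promoters, and the immediate early genes are read out with no new protein needed. Many of their products are transcription factors themselves: FOS and JUN proteins pair to form AP-1, and the EGR proteins are zinc finger factors. Others, such as the dual-specificity phosphatases, switch the inducing kinases off, and a further set (ARC, the short form of HOMER1, BDNF) acts on synapses. Because these mRNAs are short-lived, their level in a brain sample reports on the time shortly before it was taken.

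CREB and SRF act through sites in promoters, and 6 promoters are printed here. Those of Fos, Junb, Egr2, Arl4d and Btg2 belong to genes that rose and fell together between libraries. Plk2 is set beside them as a gene that did not pass the test of following Fos given later (r = 0.47, adjusted permutation p = 0.787). RefSeq promoters of GRCm38.p6 were matched for 32 of the 43 genes, and the 250 bases before the annotated start were searched on both strands. Capitals mark the full cAMP response element TGACGTCA, its half-site TGACG in either direction, which the full element also contains, and in Egr2 a CArG box, the SRF site.
Fos (chr12:85473640-85473889, plus strand): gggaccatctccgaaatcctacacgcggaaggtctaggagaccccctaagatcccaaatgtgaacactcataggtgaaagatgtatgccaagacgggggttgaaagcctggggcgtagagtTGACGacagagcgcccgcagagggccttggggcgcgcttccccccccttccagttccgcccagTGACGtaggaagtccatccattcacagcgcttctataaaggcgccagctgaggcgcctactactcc
Junb (chr8:84978749-84978998, minus strand): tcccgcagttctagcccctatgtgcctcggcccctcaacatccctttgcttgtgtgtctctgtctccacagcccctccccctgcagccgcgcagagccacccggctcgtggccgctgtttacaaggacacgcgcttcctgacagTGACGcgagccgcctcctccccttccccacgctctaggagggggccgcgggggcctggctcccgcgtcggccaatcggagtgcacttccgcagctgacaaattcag
Egr2 (chr10:67537316-67537565, plus strand): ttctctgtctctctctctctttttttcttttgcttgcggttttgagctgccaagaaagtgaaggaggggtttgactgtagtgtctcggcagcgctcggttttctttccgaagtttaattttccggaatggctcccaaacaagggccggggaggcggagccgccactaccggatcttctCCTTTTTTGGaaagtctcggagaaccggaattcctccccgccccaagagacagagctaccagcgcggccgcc
Arl4d (chr11:101665291-101665540, plus strand): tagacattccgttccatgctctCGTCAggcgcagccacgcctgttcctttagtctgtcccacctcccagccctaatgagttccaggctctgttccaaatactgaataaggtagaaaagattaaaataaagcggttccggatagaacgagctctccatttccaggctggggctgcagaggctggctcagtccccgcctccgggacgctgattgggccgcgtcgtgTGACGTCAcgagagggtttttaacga
Btg2 (chr1:134079156-134079405, minus strand): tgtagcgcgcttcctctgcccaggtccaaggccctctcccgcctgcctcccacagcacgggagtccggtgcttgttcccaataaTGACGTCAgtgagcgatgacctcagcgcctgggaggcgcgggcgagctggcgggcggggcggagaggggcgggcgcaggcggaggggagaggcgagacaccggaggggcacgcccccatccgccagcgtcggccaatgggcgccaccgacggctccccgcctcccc
Plk2 (chr13:110394794-110395043, plus strand): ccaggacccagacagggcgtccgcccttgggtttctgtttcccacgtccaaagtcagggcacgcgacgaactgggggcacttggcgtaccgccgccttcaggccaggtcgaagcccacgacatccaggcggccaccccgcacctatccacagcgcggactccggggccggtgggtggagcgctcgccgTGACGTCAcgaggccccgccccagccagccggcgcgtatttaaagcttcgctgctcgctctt
Fos held half-sites that begin 129 and 66 bases before the start, and Junb held a single one at 106 bases. Btg2, Arl4d and Plk2 held the full element, 166, 26 and 62 bases before the start. The CArG box of Egr2 began 72 bases before the start. Some genes have several annotated starts, and a gene was counted where any of its promoters held the motif, so a count can rest on a promoter other than the one printed (Egr2 counts for the half-site in this way). Of the 32 genes, 7 (21.9%) had the full element, against 1.77% of 27025 genes with a promoter in the same table. The half-site was found for 23 of the 32 genes (71.9%), against 19.8% of all genes, and the CArG box for 2 (6.25%), against 1.62%. Among the genes whose level followed Fos between libraries (by the test given later, with Fos itself), 3 of 13 had the full element and 9 of 13 the half-site, and among the other members 4 of 19 and 14 of 19 did. A match describes the letters of this window and is not a measurement of binding. Sequence outside these 250 bases was not searched, so a gene without a match, such as Fos for the CArG box, may hold a site elsewhere.

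Values are read counts scaled between libraries (normalised read counts), with totals of 32.3 to 33.5 M per library; from the steps between low values, about 25.6 to 37.4 M reads lay behind them. The labelled tissue fitted its markers: the neuronal gene Snap25 averaged 49894 to 52420 and the astrocyte gene Gfap 5759 to 5955 over the 4 groups, and the cerebellar granule cell gene Gabra6, averaging 2208 to 2542, was read in every library. Grin2b averaged 18948, 18272, 18770.4 and 17910.4 in HT DCS, HT vehicle, WT DCS and WT vehicle, a sum over both alleles that does not check genotype. In bulk tissue, fewer cells of a type and less RNA per cell cannot be told apart. Fos and the 9 members that followed it most closely all lay under their group's mean in the same 7 libraries. These were HT DCS 2 and 4, HT vehicle 1 and 4, WT DCS 3 and 4, and WT vehicle 4. The 9 members were picked by their correlation with Fos in the same data, so their being low together follows in part from that choice. The correlation with Fos is given with and without these 7 libraries, and the group comparisons with single libraries left out in turn.

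Fos, the founding immediate early gene and the most used marker of recent neuronal activity (ENSMUSG00000021250, chr12:85473890-85477273, plus strand, GRCm38), ranged widely inside every group. Its normalised read count had a lowest, median and highest value of 535, 1106 and 1897 in HT DCS and of 618, 1648 and 1969 in HT vehicle. It was 1573, 1515, 843, 622 and 1251 in WT DCS libraries 1 to 5, against 390.4, 1325 and 1975 in WT vehicle. The lowest and highest of the 23 libraries were thus both WT vehicle, libraries 4 and 6, and differed 5.06-fold, and the 4 groups overlapped over most of their range. The group means were 1079.8 ± 483 in HT DCS, 1423 ± 510.1 in HT vehicle, 1161 ± 417 in WT DCS and 1255 ± 529 in WT vehicle (SD, n = 6, 6, 5 and 6).

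The other AP-1 genes divided into wide and narrow. Fosb, which encodes a FOS relative, had a lowest, median and highest count of 121, 223 and 357 in HT DCS and 133, 329 and 422 in HT vehicle. In WT DCS libraries 1 to 5 it had 247, 342, 224, 122 and 296, against 86.1, 266 and 423 in WT vehicle. The low libraries were those low in Fos. Junb, a JUN family partner, had 1007, 1591 and 2193 in HT DCS and 1299, 1989 and 2446 in HT vehicle as lowest, median and highest. It had 1823, 1931, 1448, 1128 and 1841 in WT DCS, against 771, 1727 and 2295 in WT vehicle, where library 4 lay far below the other 5. Fosl2 spanned 753 to 1576 over all libraries. Jun, the main partner of FOS, was by contrast nearly level: lowest, median and highest were 1587, 1779 and 1974 in HT DCS and 1769, 1941 and 2214 in HT vehicle. Its WT DCS libraries had 2133, 1969, 1851, 1960.0 and 1957, against 1849, 1999.97 and 2167 in WT vehicle.

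**Figure D1:**
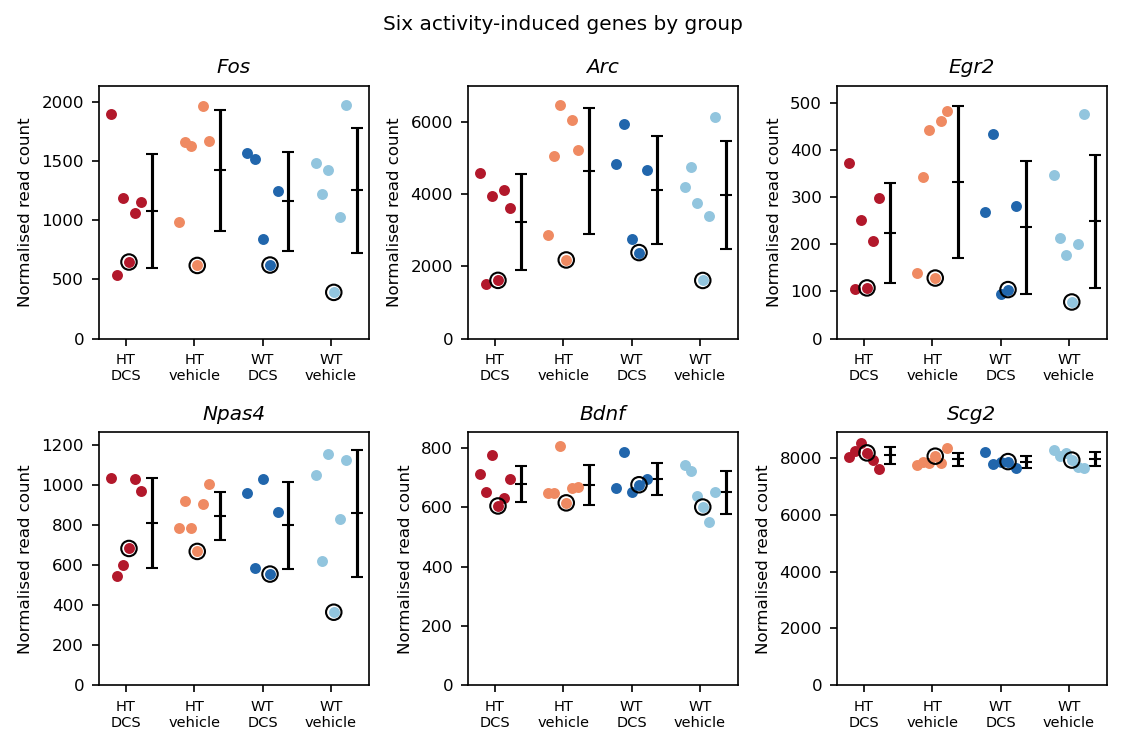
Normalised read count (linear axis from 0) of Fos, Arc, Egr2, Npas4, Bdnf and Scg2 in each library, by group, with the mean and SD of the group as a bar beside the points; circles ring the libraries numbered 4. Fos, Arc and Egr2 spread several-fold inside each group and the groups overlap, while Scg2 lies between 7621 and 8514 in all 23 libraries.

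Among the EGR zinc finger factors, Egr2 (ENSMUSG00000037868, chr10:67535475-67542188, plus strand) was the most variable of all members, with a within-group SD of 0.87 on the log2 scale and a 6.22-fold range. Its lowest, median and highest counts were 105, 229 and 373 in HT DCS and 129, 394 and 483 in HT vehicle. In WT DCS it had 268, 435, 94.5, 104 and 281, against 77.7, 207 and 477 in WT vehicle. In HT DCS, HT vehicle and WT DCS the values fell into a low pair and a higher set, while in WT vehicle they were spread between the extremes. The HT DCS pair had 105 and 108, and its next value was 207. Egr1, an abundant factor also known as Zif268, ranged from 5064 to 10150.2, Egr3 from 1849 to 3074 and Egr4 from 745 to 1412.

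The remaining transcription regulators were mixed. Nr4a1, an orphan nuclear receptor induced with Fos, had a lowest, median and highest count of 1502, 2626 and 3418 in HT DCS and 1681, 3587 and 3966 in HT vehicle. It had 2836, 3621, 1839.9, 1707 and 3139 in WT DCS, against 1361, 2598 and 3938 in WT vehicle. Npas4, a factor of neurons that calcium induces selectively, had 544, 828 and 1034 in HT DCS, 668, 846 and 1006 in HT vehicle, 960.2, 586, 1031, 555 and 868 in WT DCS, and 364, 941 and 1157 in WT vehicle. Npas4 lay under its group mean in HT DCS 2 and 4 (544 and 683) and HT vehicle 1 and 4 (786 and 668). It also did in WT DCS 4 (555) and WT vehicle 4 (364), all of them libraries low in Fos. The match was not complete: WT DCS 3, second lowest of its group for Fos, was its highest for Npas4. HT DCS 3 (603) and WT DCS 2 (586) were low for Npas4 but not for Fos (1188 and 1515). Ier2, Btg2, Klf4, Csrnp1 and Nr4a3 spanned 2.14-fold to 3.01-fold between their extreme libraries, and Crem, Nr4a2, Ier5, Klf10 and Tiparp 1.48-fold to 1.78-fold. Maff, a small MAF protein, was the least abundant member, at a mean of 32.2, with a 3.45-fold range.

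Of the signalling and feedback genes, Dusp1, a phosphatase that inactivates MAP kinases, moved most. Its lowest, median and highest counts were 647, 1168 and 1607 in HT DCS and 859, 1490.1 and 1652 in HT vehicle. It had 1465, 1244, 915, 832 and 1252 in WT DCS, against 535, 1209 and 1778 in WT vehicle. Sik1, a kinase that restrains CREB coactivators, Trib1, Dusp6, Gadd45b and Arl4d had ranges of 1.79-fold to 1.96-fold, and Dusp5 and Gadd45g of 1.499-fold and 1.43-fold. Rheb, the small GTPase that activates mTORC1, Plk2, a kinase of synaptic scaling, and Rgs2, a brake on G protein signalling, were nearly level, at 1.22-fold, 1.24-fold and 1.27-fold.

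The synaptic and secreted effectors were the steadiest set with the exception of Arc, which encodes a capsid-forming protein that drives AMPA receptor internalisation (ENSMUSG00000022602, chr15:74669083-74672570, minus strand). Arc had a lowest, median and highest count of 1507, 3779 and 4607 in HT DCS and 2180.5, 5149 and 6489.9 in HT vehicle. It had 4831, 5953, 2750.1, 2385 and 4665 in WT DCS, against 1611, 3977 and 6142 in WT vehicle. Each group held both low and high libraries, so the groups overlapped. Bdnf, the neurotrophin, had a lowest, median and highest count of 605, 675 and 776 in HT DCS, 616, 659 and 808 in HT vehicle, and 552, 645 and 744 in WT vehicle, with 666, 786, 651, 677 and 697 in WT DCS. Homer1, a postsynaptic scaffold whose short form is the activity-induced one, ranged from 3177 to 4406. The secretory granule gene Scg2 had the smallest spread of the members (log2 SD 0.05, a 1.12-fold range), and the ranges of Nrn1, Nptx2, Pcsk1 and Vgf were 1.22-fold, 1.24-fold, 1.34-fold and 1.39-fold. Inhba, an activin subunit, and Ptgs2, the inducible cyclooxygenase, had 1.52-fold and 1.62-fold. Values are summed over the transcripts of a gene, so the short Homer1 form, the activity-dependent Bdnf transcripts and the ICER transcripts of Crem are not seen apart from the constitutive ones.

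Set against the rest of the transcriptome, the members were variable between libraries of 1 group. The median within-group SD was 0.23 (log2) over the 43 members and 0.12 over all 17256 tested genes. Since low counts add noise, the comparison was also made among the 12841 genes averaging 100 or more, where the median SD was 0.09: of 42 members at that level, 36 lay above the median of these genes, 20 above their 95th percentile and 9 above their 99th. By role, the median SD was 0.44 for AP-1, 0.31 for EGR, 0.31 for the other transcription regulators, 0.23 for signalling and feedback, and 0.12 for synaptic and secreted effectors. These are descriptions without a test.

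**Figure D2:**
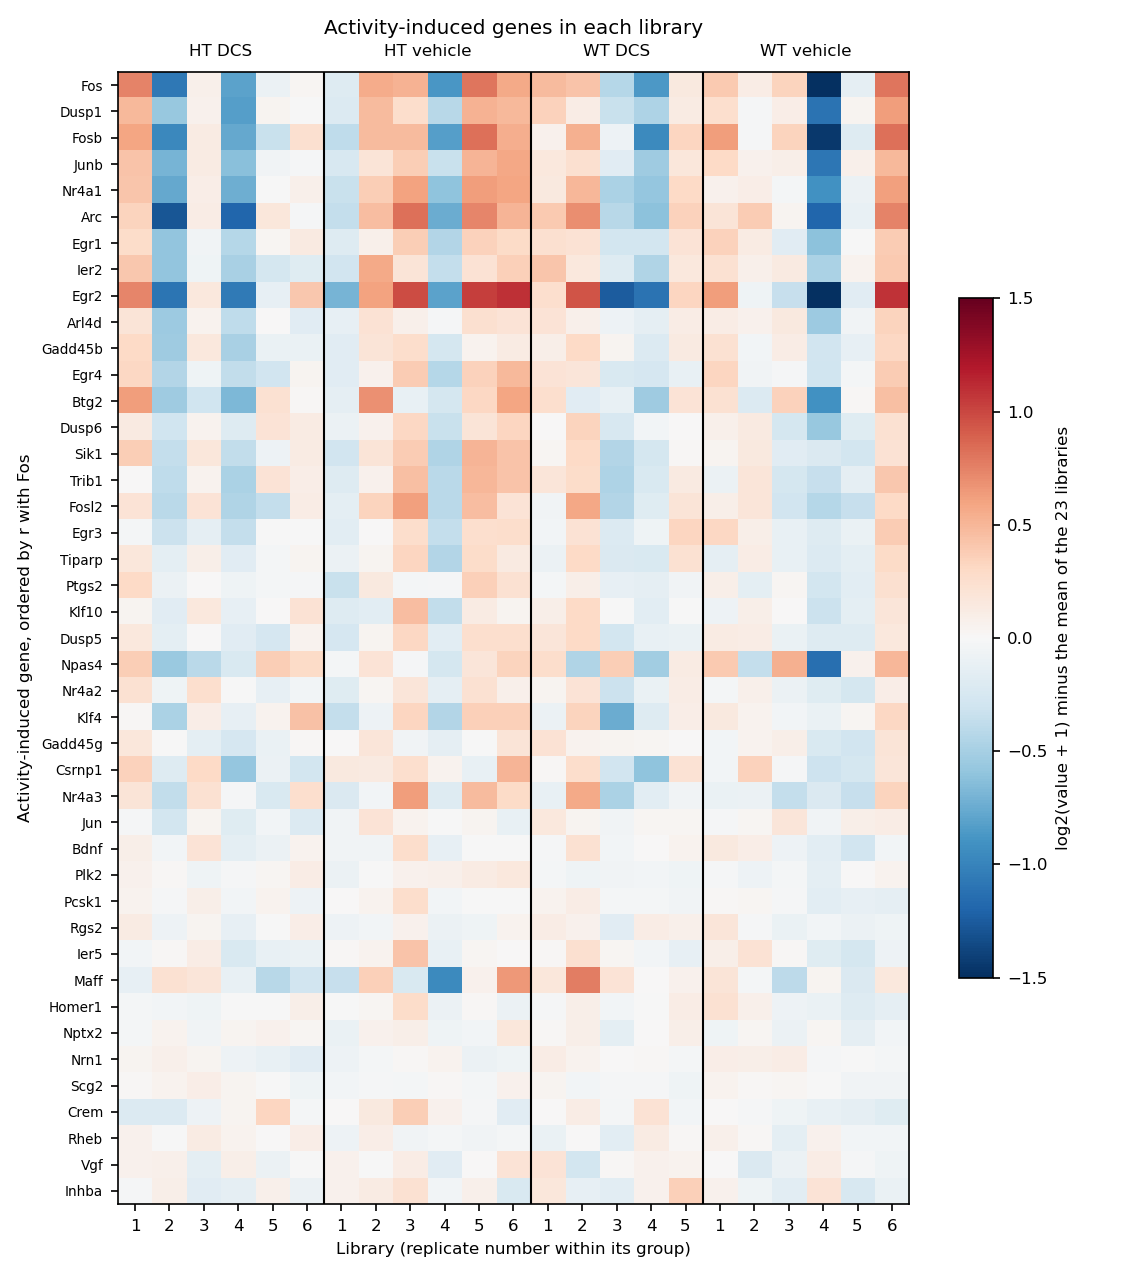
log2(normalised read count + 1) minus the mean of the 23 libraries for each of the 43 genes (rows, ordered by their correlation with Fos) in each library (columns, by group and replicate number); red is above and blue below the mean. The upper rows share dark blue columns in HT DCS 2 and 4, HT vehicle 4, WT DCS 4 and WT vehicle 4, and the lowest 8 rows are paler in those columns.

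The members did not vary independently. For each gene, the deviation of every library from its group mean (log2) was correlated with that of Fos over the 23 libraries, with permutation within groups and Benjamini-Hochberg adjustment over all 17255 other genes tested. Of the 42 other members, 18 were positively correlated at an adjusted permutation p under 0.05, against 27 of all genes (0.156%). An r above 0 was found for 37 of 42 members, against 48.9% of all genes, and an r above 0.8 for 14, against 0.11%. By Spearman's rho, 14 members and 22 genes (0.127%) passed. The 9 genes with r above 0.9 among all those tested (0.0522%) were all members: Dusp1, Fosb, Junb, Nr4a1, Arc, Egr1, Ier2, Egr2 and Arl4d.

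Dusp1 followed Fos most closely, with r = 0.97 (permutation p = 1e-05, the smallest that 100000 draws can give, adjusted p = 0.00908; Spearman's rho = 0.91, adjusted p = 0.0173). Fosb and Junb had r = 0.97 each, Nr4a1 0.95 and Arc 0.95, with the same smallest permutation p; their rho was 0.92, 0.91, 0.87 and 0.82 (adjusted permutation p = 0.0133 each). Without the 2 libraries farthest from the median of Fos (WT vehicle 4 and HT vehicle 4), r was 0.95 for Dusp1, 0.94 for Fosb, 0.95 for Junb, 0.94 for Nr4a1 and 0.93 for Arc. Within single groups of 5 or 6 libraries, r of Dusp1 was 0.95 in HT DCS, 0.97 in HT vehicle, 0.97 in WT DCS and 0.99 in WT vehicle. The size of the swing differed: per log2 unit of Fos, Egr2 moved by 1.18, Fosb by 0.95, Arc by 0.91, Nr4a1 by 0.70, Dusp1 by 0.66, Junb by 0.62, Egr1 by 0.46 and Arl4d by 0.31.

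By role, all 4 EGR genes and 3 of the 4 other AP-1 genes passed, as did 4 of 13 other transcription regulators (Nr4a1, Ier2, Btg2 and Tiparp), 6 of 11 signalling and feedback genes (Dusp1, Arl4d, Gadd45b, Dusp6, Sik1 and Trib1) and 1 of 10 synaptic and secreted effectors, Arc. Jun was the AP-1 exception, with r = 0.55 (adjusted permutation p = 0.64). Npas4 had r = 0.72 (adjusted permutation p = 0.296), with 0.25 within WT DCS and 0.92 within WT vehicle. Bdnf had 0.51 (adjusted permutation p = 0.749), Homer1 0.27 (0.901) and Nptx2 0.07 (0.974). The 5 members with the lowest r were Inhba (-0.13), Vgf (-0.11), Rheb (-0.10), Crem (-0.05) and Scg2 (-0.05). A low r of a gene that hardly varies is weak evidence on whether it follows Fos. Of these 5, Scg2 and Rheb varied less (SD 0.05 and 0.08, log2) than the median tested gene (0.12). Vgf, Crem and Inhba varied somewhat more than it (0.13, 0.15 and 0.16).

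**Figure D3:**
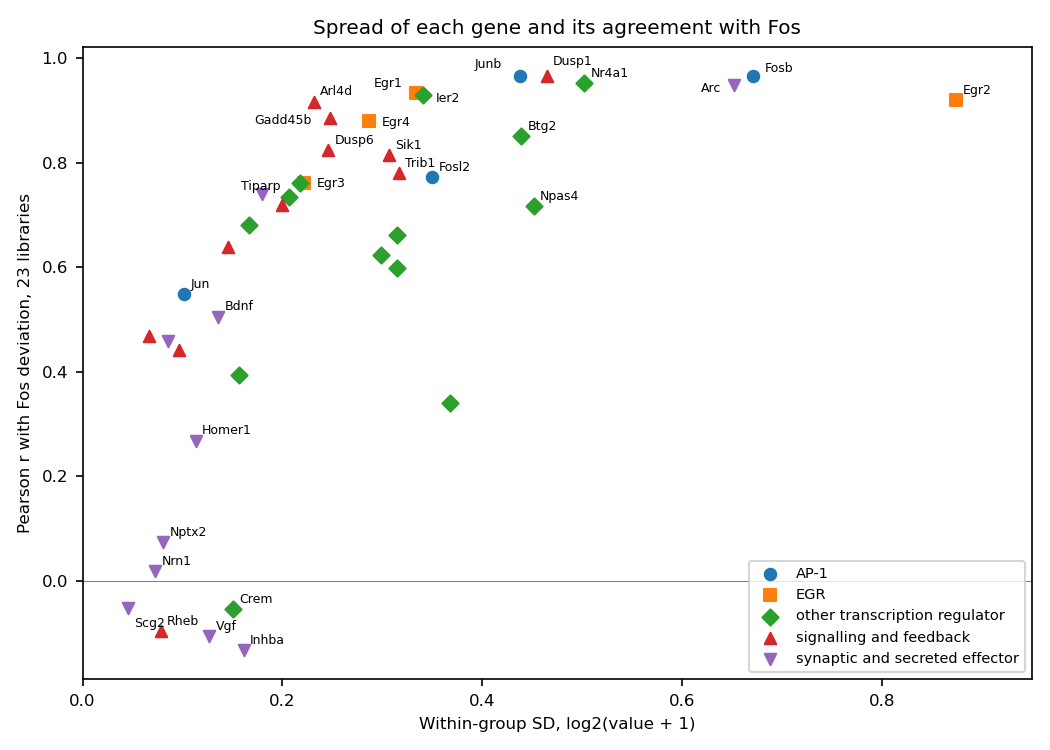
Pearson r of each member with Fos (vertical, deviations from group means over 23 libraries) against its within-group SD on the log2(value + 1) scale (horizontal), with role by marker shape. Members with an SD above 0.4 all have r above 0.7, and those with r under 0.3 all have an SD under 0.2.

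**Figure D4:**
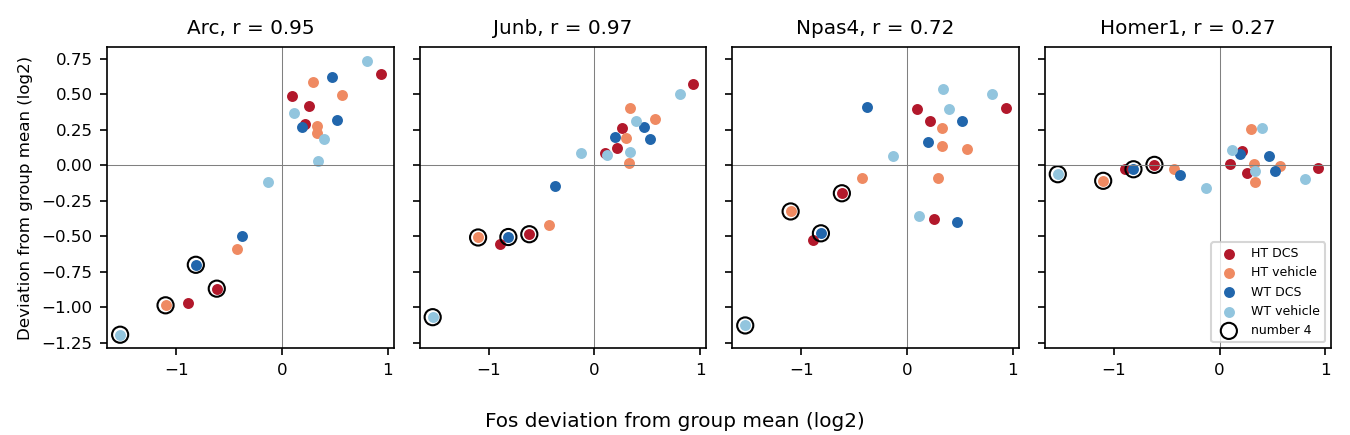
Deviation from the group mean (log2) of Arc, Junb, Npas4 and Homer1 (vertical) against that of Fos (horizontal) in 23 libraries, coloured by group, with r above each panel; rings mark the libraries numbered 4. Arc and Junb rise with Fos over the whole range, Npas4 has libraries off the line, and Homer1 is flat with r = 0.27.

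Part of the correlation rested on the 7 libraries that were low in all of the 10 leading genes. With these left out and the deviations taken anew over 16 libraries, a step chosen after the data were seen, the median r over the 42 members was 0.36, against 0.72 over all libraries. Dusp1 kept 0.88, Fosb 0.83, Arl4d 0.83, Junb 0.80, Ier2 0.76 and Nr4a1 0.76, while Arc had 0.66, Egr1 0.60, Egr3 0.34, Dusp6 0.31 and Trib1 0.27. Ptgs2 had 0.88 there and 0.74 over all libraries. Of all genes tested, 8 had r above 0.8 in the 16 libraries, 5 of them members. The median r over all genes there was 0.02, against 0.36 over the 42 members.

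The lowest library was WT vehicle 4, where the 10 leading genes lay a median of 1.08 log2 units under their group mean (a deviation of -1.08). The deviation was -0.71 in HT vehicle 4, -0.59 in HT DCS 2, -0.58 in HT DCS 4, -0.53 in WT DCS 4, -0.43 in HT vehicle 1 and -0.29 in WT DCS 3. At the other end, WT vehicle 6 lay at 0.65 and HT DCS 1 at 0.61. The library numbered 4 was low in each of the 4 groups, a pattern noticed in the data; the labels do not say what a number stands for. Over the 23 libraries, Fos deviations and the deviation of estimated depth had r = -0.17 (permutation p = 0.488; rho = -0.16, permutation p = 0.490; r = -0.15 without the 2 farthest libraries; 1 relation tested).

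Markers of cell types were less correlated with Fos than its closest members, and no gene of the lists named here passed the adjusted permutation test. The mean deviation of the neuron list had r = -0.42 with Fos, and 1 of its 10 genes had an r above 0, against 48.9% of all genes. Positive values were found for the astrocyte list (r = 0.43, 6 of 7 genes), pericytes and smooth muscle (0.43, 8 of 8), choroid plexus and meninges (0.40, 10 of 10), microglia (0.40, 7 of 8) and endothelium (0.27, 6 of 8). The highest r of a single gene of these lists was 0.47, that of a choroid plexus or meningeal marker. An unadjusted permutation p under 0.05 was found for 3 microglia genes, 2 of pericytes and smooth muscle and 1 of choroid plexus and meninges. It was found for 0 neuron, astrocyte or endothelial genes, and for 1071 of all 17255 genes tested. The summed microglia markers ranged from 3423 to 5791 in HT DCS, 3452 to 5489 in HT vehicle, 3019 to 6037 in WT DCS and 3190.1 to 5501 in WT vehicle, and the summed neuron markers from 227088 to 239849, 226371 to 240511, 226716 to 243651 and 229254 to 237606 in the same order of groups. No listed marker was at 0 in every library. The part of these differences in the shared movement of the activity-induced genes was not tested.

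The main comparisons of the study ask what the heterozygous mutation does under each treatment, what DCS does in each genotype, and whether its effect depends on genotype. In none of the 6 contrasts did a member pass an adjusted p of 0.05 (limma), and 0 of all 17256 genes did, a background of 0.0% each time. At an unadjusted p under 0.05 there were 1 member in HT DCS against WT DCS (background 7.55%), 2 in HT vehicle against WT vehicle (4.22%), 1 in HT DCS against HT vehicle (4.8%), 0 in WT DCS against WT vehicle (2.88%), 1 in HT DCS against WT vehicle (7.18%) and 0 in the interaction (4.38%). No member had groups that did not overlap, against a background of 0.411% of genes in HT DCS against WT DCS, 0.249% in HT vehicle against WT vehicle, 0.127% in HT DCS against HT vehicle, 0.33% in WT DCS against WT vehicle and 0.313% in HT DCS against WT vehicle. The contrasts share groups and are not independent of one another.

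In vehicle, HT against WT, 35 of 43 members had a log2 difference above 0, against 49.7% of all genes, with a median of 0.09 against 0.00. Egr2 had the largest, 0.44 (95% interval -0.61 to 1.49; limma, adjusted p = 0.999), from means of 333 ± 162 in HT vehicle and 249 ± 142 in WT vehicle (SD, n = 6 each). Nr4a3 followed with 0.28 and Fosl2 with 0.26; Fos had 0.23 (-0.59 to 1.05), Nr4a1 0.25, Arc 0.23, Dusp1 0.20, Junb 0.19 and Fosb 0.16. The intervals all contain 0 and allow a change of either direction. Nrn1, Klf4 and Jun had the lowest differences, -0.07, -0.04 and -0.04. Plk2 and Pcsk1, which encodes a prohormone convertase, were the members with an unadjusted p under 0.05, with differences of 0.09 (0.01 to 0.17) and 0.11 (0.01 to 0.21; limma, adjusted p = 0.999 for both). Because members follow each other between libraries, 35 of 43 is not a count of independent genes, and 1 library weighs on it: without WT vehicle 4 it was 24 of 43 and the median 0.03, while the median was 0.14 without HT vehicle 4. Markers of other cell types moved in the same contrast: choroid plexus and meningeal markers were above 0 in 10 of 10 genes (median 0.18), pericyte and smooth muscle markers in 8 of 8 (0.19), microglia markers in 8 of 8 (0.12) and endothelial markers in 8 of 8 (0.08), and oligodendrocyte markers in 0 of 8 (-0.11). Of these, 3, 3, 0, 1 and 0 genes had an unadjusted p under 0.05 and none passed the adjusted test (limma). Regional markers moved too. Striatal markers were below 0 in 6 of 7 genes (median -0.12, 4 with an unadjusted p under 0.05). Hindbrain markers were below 0 in 8 of 9 (median -0.63, 1 such gene), and none of either list passed the adjusted test (limma). The part of all these lists in the members' differences was not tested.

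In HT mice, DCS against vehicle, 37 of 43 members lay below 0 and 6 above, against 49.3% of all genes above, with a median of -0.13. Arc had the lowest difference, -0.55 (-1.34 to 0.23; limma, adjusted p = 0.973), with means of 3236 ± 1337 in HT DCS and 4652 ± 1744 in HT vehicle (SD, n = 6 each). Egr2 had -0.53 (-1.58 to 0.52), Fos -0.42 (-1.24 to 0.40), Fosb -0.37, Nr4a1 -0.36, Junb -0.32 and Dusp1 -0.32. Jun, at 1780 ± 151 in HT DCS and 1950 ± 154 in HT vehicle, had -0.13 (-0.24 to -0.02; limma, unadjusted p = 0.0223, adjusted p = 0.973). All 5 AP-1 and all 4 EGR members were below 0. Bdnf, Nptx2 and Homer1 had 0.01, 0.00 and -0.04, and the highest differences were those of Rheb (0.08), Klf10 (0.04) and Rgs2 (0.03). None of these differences passed the adjusted test. As members follow each other between libraries, 37 of 43 is again not a count of independent genes. The median was -0.17 without HT vehicle 4 and -0.08 without HT DCS 2, and the count above 0 lay between 4 (without HT vehicle 1 or 4) and 12 (without HT vehicle 3; 10 without HT vehicle 5). Oligodendrocyte markers were below 0 in 8 of 8 genes (median -0.14) and choroid plexus and meningeal markers in 8 of 10 (-0.15), with 1 unadjusted p under 0.05 in each list and none past the adjusted test (limma). Their part in the members' differences was not tested.

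In WT mice, DCS against vehicle, members were spread about 0: 24 of 43 were above it (50.3% of all genes) and the median was 0.01, between -0.03 without WT vehicle 4 and 0.08 without WT vehicle 6. The count above 0 was 15 without WT DCS 2 and 36 without WT vehicle 6 or WT DCS 4. Choroid plexus and meningeal markers were above 0 in 9 of 10 genes (median 0.20) and pericyte and smooth muscle markers in 8 of 8 (0.06), a movement whose part in the members' differences was not tested. Fos had -0.05 (-0.90 to 0.81; limma, adjusted p = 1), Arc 0.07 (-0.75 to 0.90), Egr2 -0.10 and Npas4 -0.04. Maff had the highest difference, 0.28 (-0.17 to 0.73), with 1 library, WT DCS 2, well above the others; Crem (0.13) and Inhba (0.11) came next, and Klf4 was lowest at -0.19. The interaction, the DCS difference in HT minus that in WT, was below 0 for 39 of 43 members and above for 4, against 49.3% of all genes above, with a median of -0.18. These 39 are likewise not independent genes, since members follow each other between libraries. Arc had -0.62 (-1.76 to 0.51; limma, adjusted p = 0.984), Egr2 -0.43, Fosl2 -0.40, Nr4a1 -0.38 and Fos -0.37 (-1.56 to 0.81), and Klf4 0.16, Rheb 0.09 and Scg2 0.04 were the highest. The median over members was -0.09 without WT vehicle 4 and -0.23 without HT vehicle 4, and the count above 0 was 8 without WT vehicle 4 and 7 without WT DCS 2. Choroid plexus and meningeal markers were below 0 in 9 of 10 genes (median -0.27, 4 with an unadjusted p under 0.05), oligodendrocyte markers in 8 of 8 (-0.13, 1) and pericyte and smooth muscle markers in 8 of 8 (-0.12, 0); none passed the adjusted test (limma), and their part in the members' interaction was not tested. A difference between the genotypes in their response to DCS was therefore not detected for any member. For Fos and Arc the interval includes a response more than 1 log2 unit lower in HT. It also includes a higher response in HT, by up to 0.81 for Fos and 0.51 for Arc.

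**Figure D5:**
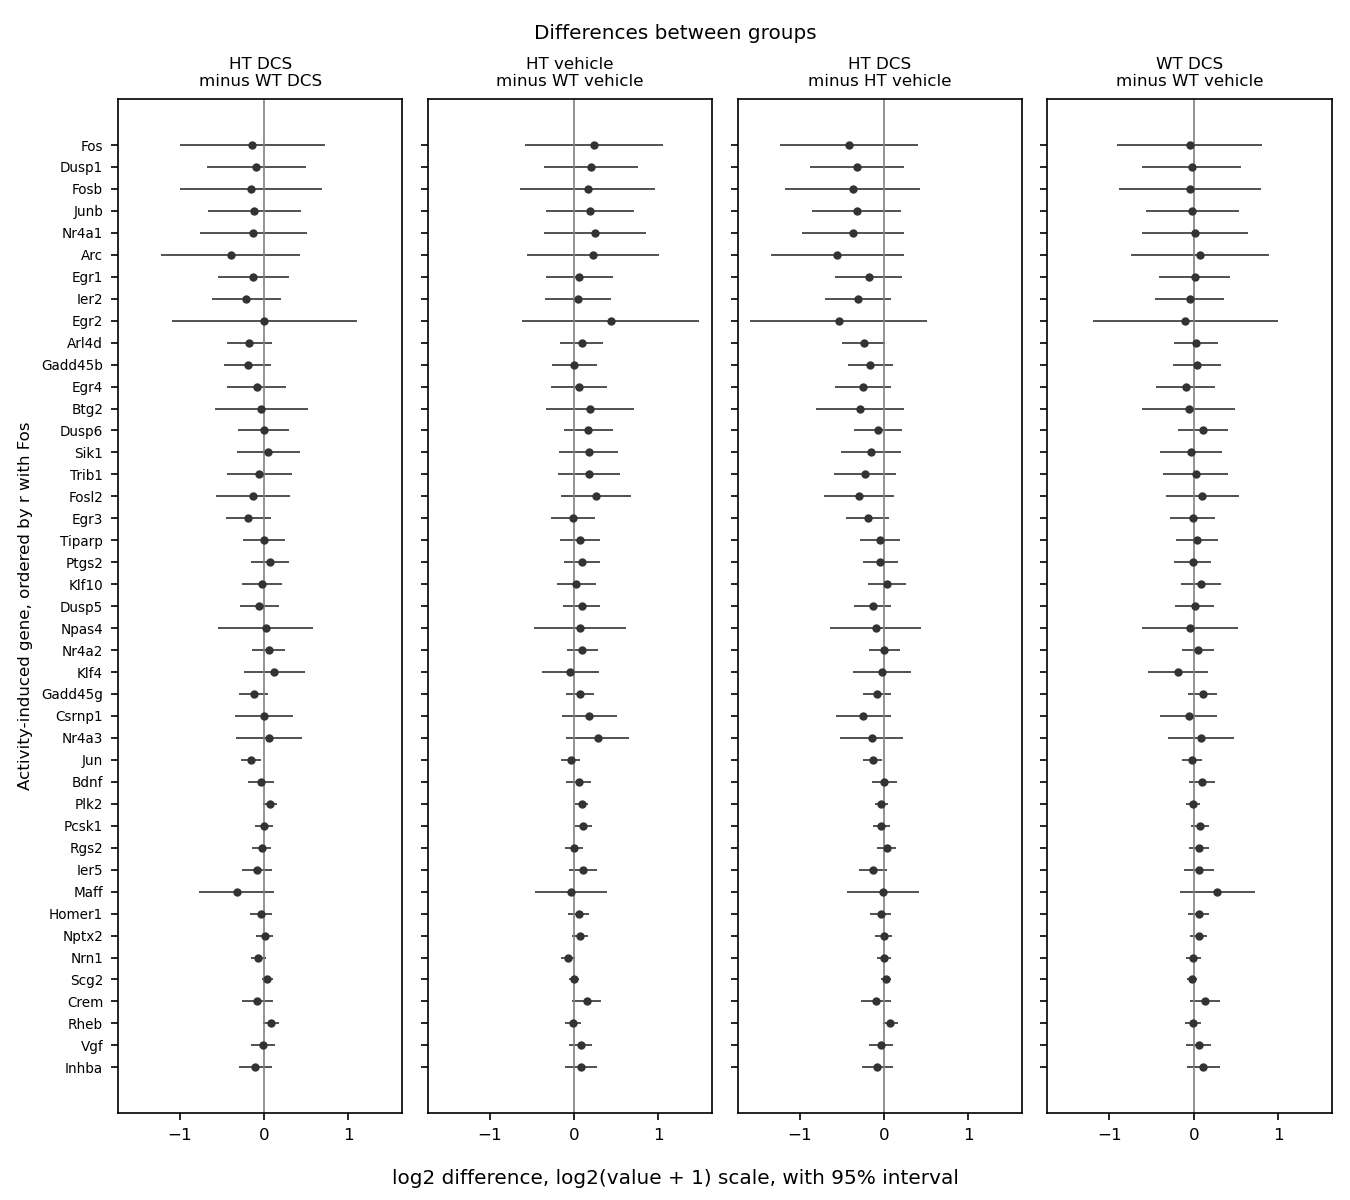
log2 difference (horizontal, log2(value + 1) scale) with its 95% interval from limma for each of the 43 genes, ordered by correlation with Fos, in 4 contrasts. Points of most upper rows lie right of 0 in HT vehicle minus WT vehicle and left of 0 in HT DCS minus HT vehicle, with intervals that contain 0, and the lower rows have short intervals.

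Under DCS, HT against WT, 12 of 43 members were above 0 (49.8% of all genes), with a median of -0.06, between -0.10 without WT DCS 4 and -0.01 without HT DCS 2. The count was 5 without WT DCS 3 and 20 without WT DCS 2, with 8, 9, 18 and 19 without HT DCS 1, WT DCS 4, HT DCS 2 and HT DCS 4. Jun differed most by p: 1780 ± 151 in HT DCS and 1974 ± 101 in WT DCS (SD, n = 6 and 5), a log2 difference of -0.15 (-0.27 to -0.03; limma, unadjusted p = 0.0133, adjusted p = 0.616). Arc had -0.40 (-1.22 to 0.43), Maff -0.33, Ier2 -0.21 and Fos -0.14 (-0.9995 to 0.72), and Klf4 (0.12), Rheb (0.08) and Plk2 (0.07) had the highest differences. HT DCS against WT vehicle, which sets treated mutants beside untreated wild types, had 18 of 43 members above 0 (49.5% of all genes) and a median of -0.03. The median was -0.08 without WT vehicle 4 and 0.02 without HT DCS 4, where the count was 28. Jun again had the smallest p, with a difference of -0.17 (-0.28 to -0.06; limma, unadjusted p = 0.00468, adjusted p = 0.548), while Fos had -0.19 (-1.005 to 0.63) and Arc -0.32 (-1.11 to 0.46). Nr4a3, Nr4a2 and Dusp6 had the highest, 0.14, 0.10 and 0.10. Oligodendrocyte markers were below 0 in 8 of 8 genes in both of these contrasts (medians -0.24 against WT DCS and -0.25 against WT vehicle, with 7 and 8 genes at an unadjusted p under 0.05). Striatal markers were below 0 in 7 of 7 and 6 of 7 (medians -0.14 and -0.13, with 4 and 5 such genes). Hindbrain markers were below 0 in 9 of 9 in both (medians -0.60 and -1.004, with 2 and 4 such genes), and no gene of these lists passed the adjusted test (limma). The summed oligodendrocyte markers ranged from 317284 to 492427 in HT DCS, 383066 to 483125 in HT vehicle, 433335 to 509498 in WT DCS and 444858 to 509466 in WT vehicle. In the same order of groups, the summed choroid plexus and meningeal markers ranged from 8539.8 to 14026, 10305 to 15305, 10681 to 17765 and 10402 to 12748, and those of pericytes and smooth muscle from 5069.8 to 6570.2, 5189.9 to 6695, 5064 to 6204 and 4873 to 5848. The part of these lists in the members' differences was not tested.

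The width of these intervals follows the spread of each gene. For Egr2 the standard error of a difference was 0.50 (log2) in HT vehicle against WT vehicle, for Fos 0.39 and for Arc 0.38, while for Homer1 it was 0.06, for Nptx2 0.05 and for Rheb 0.04. A difference of 0.2 on the log2 scale would thus lie within the error for Fos and outside it for Rheb. Group differences are therefore estimated more precisely for the steady genes than for the classical immediate early genes, whose levels spread more between libraries.

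Beside the members, a list of 25 other activity-induced genes was followed, of which 23 were tested. In none of the contrasts did one of them pass the adjusted test (limma); at an unadjusted p under 0.05 there were 0 to 2 per contrast. The list had 17 of 23 genes above 0 in HT vehicle against WT vehicle (median 0.04) and 5 of 23 in HT DCS against HT vehicle (median -0.03). With Fos, 20 of 23 had a positive r (median 0.45) and 2 passed: Ccn1, a secreted matrix protein (r = 0.88, adjusted permutation p = 0.00908), and Fbxo33 (r = 0.74, adjusted permutation p = 0.0276). A further 24 genes form the route that carries calcium signals to the nucleus, from NMDA receptor subunits through kinases to CREB, SRF and MEF2 factors. They differed from that list: 6 had a positive r with Fos (48.9% of all genes did), the median was -0.16 and none passed. An unadjusted permutation p under 0.05 was found for 3 of them, against 1071 of all 17255 genes tested. Srf was highest at 0.68 (adjusted permutation p = 0.291) and Mrtfa, an SRF coactivator, lowest at -0.61 (adjusted permutation p = 0.572). Grin2b itself had r = -0.22. In HT vehicle against WT vehicle 15 of these 24 were above 0 (median 0.01), and in HT DCS against HT vehicle 10 of 24 (median 0.00).

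Outside the members, the genes most like Fos over the 23 libraries were 1700016P03Rik (r = 0.88, adjusted permutation p = 0.0164), Ccn1 (0.88), Sowahb (0.83), Tent5a (0.83), Apold1 (0.82), Adamts1 (0.77), Pgm5 (0.77), Adrb1 (0.76), Bhlhe40 (0.75) and Nfil3 (0.75). Pgm5, Bhlhe40 and Nfil3 did not pass the adjusted threshold (adjusted permutation p = 0.0959, 0.0668 and 0.0701). The first, 1700016P03Rik, is a non-coding transcript at chr11:75172560-75177633, plus strand, with a mean of 38.7 normalised reads, and it moved by 1.29 log2 units per unit of Fos, more than any named member. RefSeq places the hairpins of miR-212 and miR-132, microRNAs of neurons, inside it on the same strand. Their 3p mature forms are printed because they share a seed, bases 2 to 8, in capitals.
miR-212-3p: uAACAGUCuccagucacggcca
miR-132-3p: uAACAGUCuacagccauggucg
The libraries hold polyadenylated RNA, so the mature microRNAs themselves were not measured.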

How the data were processed

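The authors deposited 1 table of 18848 genes by 23 libraries whose values are a signal of read counts scaled between libraries, per the file headers. DESeq2 1.26.0, Salmon 1.1.0, R 3.6.2 and the build GRCm38 appear in the submitters' processing notes, without roles. Per the labels' protocols the kit was stranded and selected mRNA. The values have decimals: between 58.0% and 77.5% of low values per library lay within 0.15 of a whole multiple of the spacing, so reads could not be recovered and no count test was run. Scaling hides differences in total RNA.

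limma 3.58.1 (R 4.3.3) was fitted to log2(value + 1) over the 17256 genes averaging 10 or more, with 1 coefficient per group, trend and robust moderation, and Benjamini-Hochberg adjustment over all of them; tests are two-sided. The pseudocount understates changes of low genes. Correlations with Fos used 100000 permutations within groups; the design planned adjustment over the members, and adjustment over all genes was used instead. Python 3.11.15 and scipy 1.17.1 were used, and both methods were tested on simulated data. Symbols came from a table of identifiers (16 had none), coordinates from GENCODE M21 on GRCm38. Named members are 14 fixed ones, the 3 highest and 3 lowest per contrast, any past the threshold and the 5 highest and lowest in r with Fos; values of other members were chosen after they were seen. The members and lists were chosen with earlier results of these data known. Of the other activity-induced list, Fosl1 and Tamalin were not matched by symbol. No promoter was printed from chromosome 18.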

Additional observations from a re-analysis of the deposited data

Results flagged for a closer look

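Among 120 sets of 1 gene in 1 group (30 genes described here, 4 groups), 8 held a library far from the others by Dixon's criterion, a number close to the 1 in 20 that chance gives. No explanation was tested for any of them.

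WT vehicle 4 lay far below its group in Junb, at 771 against 1705 to 2295 in the other 5 libraries, and in Dusp1, at 535 against 1139 to 1778. HT vehicle 3 lay above its group in Bdnf, at 808 against 616 to 669, and in Homer1, at 4406 against 3402 to 3708. Rheb was high in HT vehicle 2, at 2591 against 2284 to 2371. Maff was high in WT DCS 2, at 53.8 against 31.2 to 36.0. Rgs2 was low in WT DCS 3, at 1148 against 1354 to 1393, and high in WT vehicle 1, at 1460.4 against 1206 to 1270.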

How the results depend on the processing

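No member passed the adjusted threshold in any contrast under any setting tried. These were other pseudocounts and filters, no trend, quantile normalisation, only the groups compared, replicate numbers 1 to 3 or 4 and above alone, the replicate block, and each library left out. Over all genes, the count called stayed at 0 except as follows, and the cause was not tested: with numbers 4 and above alone it was 1 in HT DCS against WT DCS, in WT DCS against WT vehicle and in the interaction; leaving out a library gave 0 to 1 in HT DCS against WT DCS and HT DCS against WT vehicle (1 without HT vehicle 6) and in HT DCS against HT vehicle (1 without HT DCS 4 or HT vehicle 1). Whether replicate numbers pair the libraries was not tested. By the title numbers, 5 of 33 same-numbered pairs had a correlation of deviations above 0.1 (from -0.07 to 0.30). Their median was 0.015, against -0.0025 for the other pairs, and 7 of 23 libraries were closest to their own number. With the replicate block, HT DCS against WT vehicle called 11 genes by the title numbers and 2 by the description numbers, which differ for 1 WT DCS library; other counts stayed at 0.

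The median r of members with Fos was 0.67 with the block by title numbers, 0.68 by description numbers, 0.71 on unlogged values, 0.67 without the 2 farthest libraries and 0.36 without the 7 low libraries (fewer libraries, chosen for low values). The median difference over members in HT vehicle against WT vehicle was 0.02 with numbers 1 to 3 alone and 0.14 with numbers 4 and above. Depth bears mostly on Maff, the only member with a mean under 100.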
